A study of Lobosphaera incisa with 32 samples.

Results

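High light was compared with normal light in cells of the green microalga Lobosphaera incisa (strain SAG 2468) that had been without nitrogen (N) for 72 h. The comparison takes in every gene with at least 1 FPKM (a count of fragments scaled to transcript length and to the size of the library) under either light. These were 13333 of the 16722 genes in the deposited tables, and the other 3389 were below 1 FPKM under both lights. The change of a gene is given as a log2 ratio of FPKM under high light over normal light, with 1 FPKM added to each value, so that 1.00 is a doubling and low levels do not yield large ratios.

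Both 72 h cultures were axenic, were washed into medium without an N source, and were lit with a photon flux of 150 µmol per square metre and second for high light (HL) and of 75 for normal light (NL). The series also holds N-deprived cells at 12 h under HL and the replete culture at 0 h under NL. Each of the 4 conditions has 8 samples, from 2 biological replicates with 4 technical replicates each, and the quantification tables give 1 pooled value per condition. The 72 h conditions had the same time without N, so that light is the one labelled difference between them, whereas at 12 h light, N and time all differ from 0 h. RNA was taken from whole cultures and the levels are scaled to the size of each library, so the amount of RNA per cell was not measured. A change in all cells cannot be told apart from a change in a part of them. The labels do not say whether the HL samples of 12 h and of 72 h came from the same cultures.

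A cell without N stops dividing and dismantles part of its chloroplast, while carbon fixed in the light is stored in starch and in triacylglycerol. In L. incisa the triacylglycerol is rich in arachidonic acid (ARA) and is kept in lipid droplets. More light adds energy that a starved cell cannot spend on growth, and green algae are known to adjust light harvesting, photoprotection and storage to it. Autophagy, in which cell contents are enclosed in a membrane and broken down in the vacuole, is a second way to supply a starved cell. The deposited tables do not pair gene IDs with product names. Names below are those of the published description of the series, which cover 31 genes. The biology of the remaining genes cannot be stated from the tables. No sequence is shown, since none of the files used here holds one.

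The pooled libraries were deep, with 214719396 expected counts under HL and 329774484 under NL at 72 h (285924034 at 12 h and 148630272 at 0 h). The 95% intervals that RSEM attached to each FPKM did not overlap between lights for 10869 of the 13333 genes (81.5%). These intervals cover counting and read assignment, not the spread between the 2 cultures, and no value per culture was used. There is thus no replicate check and no p-value for any difference below, and "called" means a difference of at least 2-fold on the scale with 1 FPKM added.

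The transcriptomes under both lights were close to each other. The transcript pool, counted in TPM, in which the transcripts of each condition are scaled to the same sum, was shared to 87.5% between HL and NL at 72 h. For the other pairs of conditions the share was 71.8% at most (72 h HL with 12 h) and 59.9% at least (72 h NL with 0 h). The median log2 ratio of all genes was -0.03, and 11618 genes (87.1%) lay within 1.5-fold. The middle 50% ran between -0.23 and 0.19, and 90% of the genes lay between -0.60 and 0.74. The distribution was therefore longer on the side of HL, with 1.64 as its 99th percentile and -1.07 as its 1st percentile. The level of 1 FPKM was reached under HL alone by 259 genes and under NL alone by 258. Few genes were near 0 under 1 light: 5 had at least 1 FPKM under HL with less than 0.1 FPKM under NL, and 1 had the reverse.

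**Figure D1:**
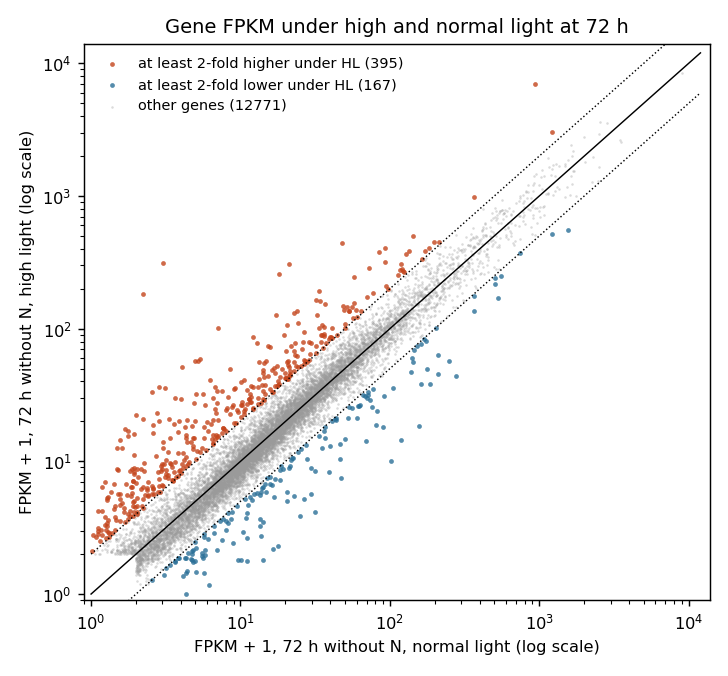
FPKM plus 1 of each gene at 72 h without N under high light (y axis) and normal light (x axis), both on log scales; the solid line marks equal values and the dotted lines a 2-fold difference. The 395 genes called higher under HL (orange) and the 167 called lower (blue) lie outside the dotted lines at all levels, and 12771 genes (grey) lie between them.

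In all, 395 genes were called higher under HL and 167 were called lower, which is 2.96% and 1.25% of the genes. At a 4-fold difference 86 were higher and 33 lower. Every called gene had RSEM intervals that did not overlap between lights, as had 81.5% of all genes. At this depth that follows largely from the 2-fold rule and adds little to the calls. A called gene had a median of 21.6 FPKM under HL and 5.52 under NL when higher, and of 5.71 under HL and 17.7 under NL when lower. These medians follow from the choice of the genes and are given as levels. In the remaining conditions, which the choice did not use, the genes higher under HL had a median of 20.0 FPKM at 12 h and 9.70 at 0 h, while those lower under HL had 8.69 at 12 h and 14.9 at 0 h. Over all 13333 genes the medians were 16.9 FPKM at 12 h and 14.0 at 0 h. The condition with the highest level depends in part on the choice, since a gene called higher under HL cannot be highest at 72 h under NL, and the reverse. Of the 395 genes higher under HL, 202 (51.1%) were highest at 72 h under HL, 137 (34.7%) at 12 h and 56 (14.2%) at 0 h. Of the 167 lower genes, 83 (49.7%) were highest at 72 h under NL, 20 (12.0%) at 12 h and 64 (38.3%) at 0 h. Of all genes 15.3% were highest at 72 h under HL, 22.8% at 72 h under NL, 38.7% at 12 h and 23.1% at 0 h.

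A pooled FPKM gives more weight to the culture with more reads. The authors' mean normalised counts are averages over a condition of counts scaled for depth. Whether technical replicates were summed before the averaging is not stated, so the weight of each culture in these means is not known exactly. Both measures come from the same libraries. To the means 1 normalised count was added in place of 1 FPKM, which damps low levels less. By the means 526 genes were thus at least 2-fold higher and 283 lower under HL, and 375 and 151 with an addition matched to 1 FPKM. With 1 normalised count added, 389 of the 395 genes were at least 2-fold higher and 156 of the 167 at least 2-fold lower under HL. None of the 562 called genes had the opposite sign, and the log2 ratio of means closest to 0 was 0.93 for a gene called higher and -0.65 for a gene called lower. The 2 measures differed by more than 1.00 in log2 for 80 genes, of which 5 had at least 10 FPKM under one light. This count mixes the weight of the cultures with the unlike added amounts, which matter most at low levels.

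The genes with the most extreme log2 ratios are given by ID, among 8350 genes with at least 10 FPKM under one light. The largest log2 ratio was that of g10396, with 311 FPKM (95% interval from RSEM 309 to 312) under HL and 2.05 (1.95 to 2.15) under NL. Its ratio of 152 has a 95% counting interval of 145 to 159. The gene g10395 followed, with 183 FPKM (181 to 185) under HL and 1.23 (1.11 to 1.36) under NL, a ratio of 149 (134 to 165). Both were well above their earlier levels under HL and well below them under NL: g10396 had 23.1 FPKM at 12 h and 13.1 at 0 h, and g10395 had 50.2 at 12 h and 56.85 at 0 h. The next gene had a log2 ratio of 3.87, so these 2 genes stood far from the rest (6.68 for g10396 and 6.37 for g10395). By the authors' mean normalised counts their log2 ratios were 7.01 and 7.06 with 1 normalised count added, and 6.45 and 6.16 with an addition matched to 1 FPKM. Their IDs are consecutive.

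At the other end, g12696 had 9.03 FPKM (8.55 to 9.51) under HL and 101 (99.7 to 102) under NL at 72 h, a ratio of 0.0894 (0.0845 to 0.0945). The gene g3902 had 17.4 FPKM (16.8 to 17.9) under HL and 155 (154 to 156) under NL, a ratio of 0.112 (0.108 to 0.116). Both belonged to the abundant genes of the replete culture and were already low at 12 h. For g12696 the level was 20.9 FPKM at 12 h and 1719 at 0 h, and for g3902 it was 43.1 at 12 h and 1285 at 0 h. Under NL both thus lay between the HL samples and the replete culture. Of the 10 genes with the smallest log2 ratios, 9 were less abundant at 72 h under HL than in the replete culture, and 7 were so under NL. Of the 10 with the largest log2 ratios, 1 was less abundant than in the replete culture under HL and 9 were so under NL. These counts follow in part from the choice of the genes by their 72 h values. At 12 h, 7 of the 10 with the smallest log2 ratios were at least 2-fold lower than at 0 h, where 5.36% of all genes were. Among the 10 with the largest, 6 were at least 2-fold higher at 12 h than at 0 h, where 14.6% of all genes were, and none was 2-fold lower.

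**Figure D2:**
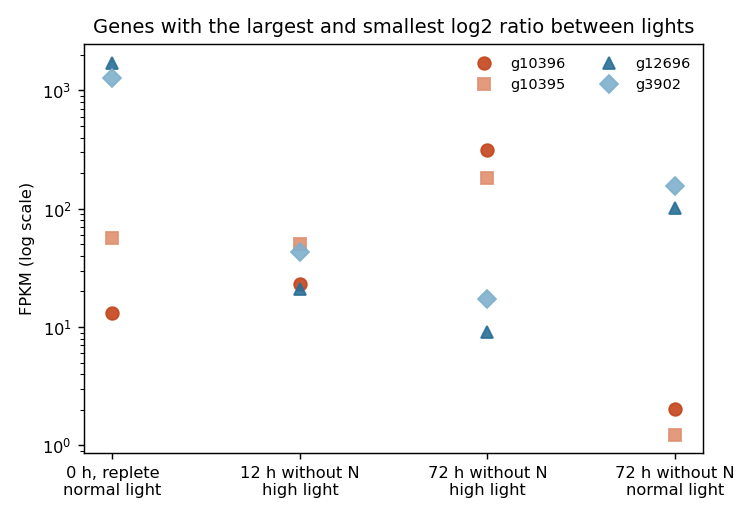
FPKM (log scale) in the 4 conditions of the genes with the largest (g10396, g10395) and the smallest (g12696, g3902) log2 ratio of high to normal light at 72 h, 1 pooled value per point. The first pair reaches 311 and 183 FPKM under HL against 2.05 and 1.23 under NL, and the second pair has 1719 and 1285 FPKM at 0 h and lies at 9.03 and 17.4 FPKM under HL against 101 and 155 under NL.

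The 12 h samples offer a comparison that shares no library with the one at 72 h, since it sets 12 h under HL against 0 h under NL. Of the genes higher under HL at 72 h, 173 of 395 (43.8%) were also at least 2-fold higher at 12 h, and these make 8.89% of the 1947 genes that were higher at 12 h. Of the genes lower under HL at 72 h, 77 of 167 (46.1%) were at least 2-fold lower at 12 h, which is 10.8% of the 715 genes that were lower at 12 h. Among all genes 14.6% were higher and 5.36% lower at 12 h. The 1947 and 715 genes were counted among the 13333 genes with at least 1 FPKM under either light at 72 h. Genes called at 12 h but below that level at 72 h are thus left out of these shares. Without a minimum, 14.3% of the 16722 genes were higher and 4.82% lower at 12 h. Moves in opposite directions were found in 34 genes (8.61% of the 395) that were lower at 12 h but higher under HL at 72 h, and in 19 genes (11.4% of the 167) with the reverse. The median log2 ratio of 12 h over 0 h was 0.81 for the genes higher under HL and -0.79 for those lower under HL, where all genes had 0.18. With this shift of all genes taken off, the shares were 37.97% of the 395 genes and 49.7% of the 167, against 11.5% and 6.82% of all genes.

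**Figure D3:**
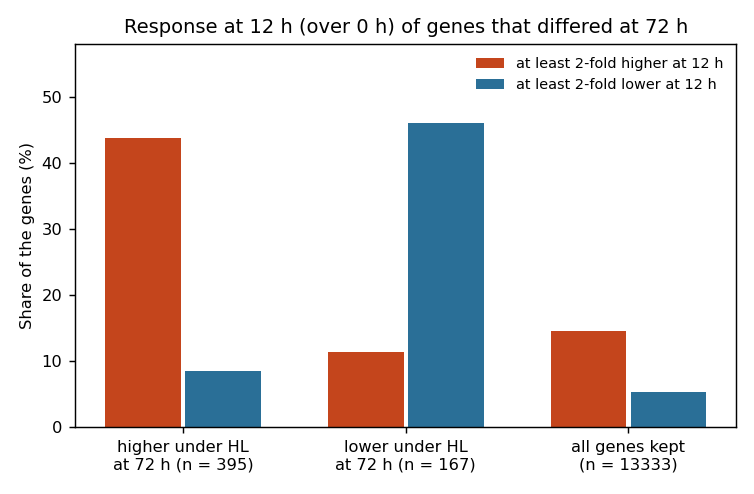
Share of genes (%) that were at least 2-fold higher (orange) or lower (blue) at 12 h without N under high light than at 0 h, for the genes called higher or lower under HL at 72 h and for all 13333 genes. Of the genes higher under HL at 72 h, 43.8% were higher at 12 h, and of those lower under HL 46.1% were lower at 12 h, against 14.6% and 5.36% of all genes.

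Seen from the other side, and within the same 13333 genes, most genes called at 12 h were not called between lights at 72 h. The 1947 genes higher at 12 h had a median log2 ratio of -0.09 between lights, and the 715 genes lower at 12 h had 0.01, next to -0.03 for all genes. With a minimum of 10 FPKM all 3 medians turned sign, and that of the genes lower at 12 h also did so in TPM, in CPM, with smaller pseudocounts and with the authors' means. Of the genes higher at 12 h, 8.89% were called higher and 0.976% lower under HL at 72 h, and of the genes lower at 12 h, 4.76% were called higher and 10.8% lower. Of the 10671 genes in neither class, 1.76% were called higher and 0.665% lower. Across all genes the log2 ratios of 12 h over 0 h and of HL over NL had a Pearson r of 0.13 and a Spearman rho of 0.00, a description over 13333 genes that share the same libraries.

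The largest difference in the transcript pool was that of a single gene, chosen after its values had been seen and left without its ID. It had 6932 FPKM under HL and 943 under NL at 72 h, a ratio of 7.35, and was at 1495 FPKM at 12 h and 12534.5 at 0 h. It held 1.195% of all TPM under HL and 0.171% under NL. Its gain made up 8.17% of all gains in TPM under HL, while the next gene made up 2.41%. The losses were spread more evenly, with 1.81% for the gene that lost most.

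Called genes occurred at every level and length. By mean FPKM of both lights, the share called higher lay between 2.19% (over 300 FPKM, 274 genes) and 3.78% (100 to 300 FPKM, 714 genes), and the share called lower between 0.882% and 2.55%. Above 300 FPKM 6 genes were called higher and 7 lower, so that the excess of higher genes was not seen in the most abundant class. The median log2 ratio moved with both properties. It was -0.11 in genes up to 3 FPKM and 0.14 above 300 FPKM, and it was 0.06 in the shortest of 5 equal classes of genes (up to 1200 bases) and -0.14 in the longest class (over 2838 bases). The part of level and length in the ratios was not tested.

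**Figure D4:**
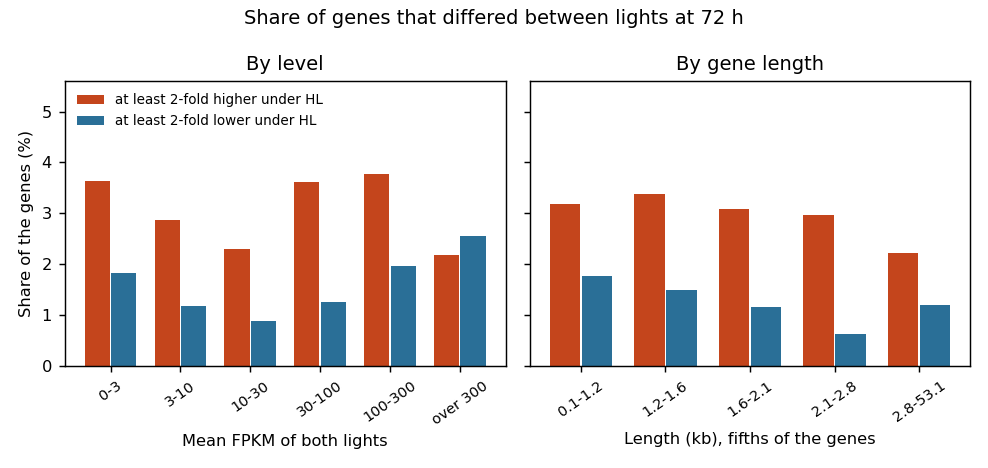
Share of genes (%) called at least 2-fold higher (orange) or lower (blue) under high light at 72 h, by mean FPKM of both lights (left) and by 5 equal classes of gene length (right). The share called higher lies between 2.19% and 3.78% in the classes of level and between 2.21% and 3.38% in the classes of length.

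Genes that differed between lights often carried neighbouring numbers. Of the 395 genes higher under HL, 91 (23.0%) had another such gene as the next number up or down, against 529 (4.09%) of the 12938 genes not called higher. Of the 167 lower genes 29 (17.4%) had a lower gene next to them, against 242 (1.84%) of the 13166 others. Runs of 3 or more consecutive numbers occurred 7 times among the higher genes, the longest with 4 genes, and 5 times among the lower genes. The study takes close numbers to mean genes that lie near each other in the genome. No coordinates were used here. Genes next to each other may also be near-identical copies, and the tables do not show how reads were divided between such copies.

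Transcript choice differed little between lights. Of 2263 genes with 2 or more annotated transcripts, 127 (5.61%) had another most abundant transcript under HL than under NL. The largest move of any transcript's share of its gene had a median of 2.92 percentage points. It reached 20 points in 52 genes, of which 6 (11.5%) were called by their total FPKM, where 3.54% of the 2263 genes were, and in 19 of the 1757 such genes with at least 10 FPKM. In the gene with the largest move at this level, chosen after its values had been seen, 1 transcript held 79.9% under HL (10.5 FPKM) and 45.5% under NL (4.22 FPKM), and the other held 20.1% under HL and 54.5% under NL. Of the 31 named genes 7 have several transcripts, and their shares moved by at most 3.16 points.

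None of the 31 named genes was called in either direction, beside 2.96% called higher and 1.25% called lower among all genes. Their log2 ratios ran from -0.35 to 0.63 with a median of -0.04, and 1 of them lay beyond 1.5-fold. Among all genes 87.1% lay within 1.5-fold. For 27 of the 31 the RSEM intervals did not overlap between lights, next to 81.5% of all genes. At this depth that is a matter of counting alone.

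The 22 autophagy-related (ATG) genes had a median log2 ratio of -0.07 next to -0.03 for all genes, with 7 above and 15 below 0. Among all genes 53.3% lay below 0. The 22 genes are described by complex, and the differences between complexes were not tested. Of these genes 9 fall in the longest class of genes, whose median was -0.14, among them 2 of the 3 of the ATG1 complex and 4 of the 6 of the class III PI3-kinase complex. The part of length in their ratios was not tested. All 3 genes of the ATG1 complex, the kinase complex that starts autophagy, had lower FPKM under HL. ATG1, the kinase itself, had 14.55 FPKM (95% interval 14.3 to 14.8) under HL and 17.7 (17.4 to 17.9) under NL, and ATG101, a subunit that stabilises the complex in animals and fission yeast, had 25.5 FPKM under HL and 32.8 under NL. The ratio for ATG101 was 0.779 (counting interval 0.756 to 0.801). ATG13, the regulatory subunit, had 5.15 FPKM under HL and 5.64 under NL. All 6 genes of the class III PI3-kinase complex, which makes the lipid PI3P on the forming membrane, likewise had log2 ratios below 0, between -0.35 and -0.04. The lowest of these was VPS15, the regulatory subunit, with 5.37 FPKM under HL and 7.10 under NL. ATG14, which directs the complex to autophagosome formation, had 19.8 FPKM under HL and 24.3 under NL. VPS34, the lipid kinase, differed least, with 15.5 FPKM (15.2 to 15.8) under HL and 15.9 (15.7 to 16.2) under NL, where the intervals overlap.

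The genes listed with the ATG9 complex, which brings and shapes membrane, had 4 log2 ratios above and 1 below 0. ATG9, the transmembrane protein, had 16.3 FPKM under HL and 14.4 under NL, and the ATG18-like gene had 35.5 FPKM under HL and 28.9 under NL, the largest ratio of the 22 genes (1.23, counting interval 1.202 to 1.258). ATG18 had 106 FPKM under HL and 99.6 under NL, a log2 ratio of 0.09 that is 0.02 in TPM. VMP1, with 26.7 FPKM under HL and 25.9 under NL, had a log2 ratio of 0.04 that turns to -0.03 in TPM. ATG2, a lipid transfer protein in other organisms, had 10.8 FPKM under HL and 12.2 under NL. In the 2 ubiquitin-like conjugation systems the log2 ratios ran from -0.28 (ATG16) to 0.22 (ATG8). ATG8, which is attached to a lipid of the autophagosome membrane, had 962 FPKM (958 to 967) under HL and 827 (824 to 830) under NL. The protease ATG4, the E1-like enzyme ATG7 and ATG5, the acceptor of ATG12, had overlapping intervals under both lights, with log2 ratios of -0.04, -0.00 and -0.03. The values for ATG7 and ATG5 turn to 0.01 and 0.00 with the authors' mean normalised counts.

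**Figure D5:**
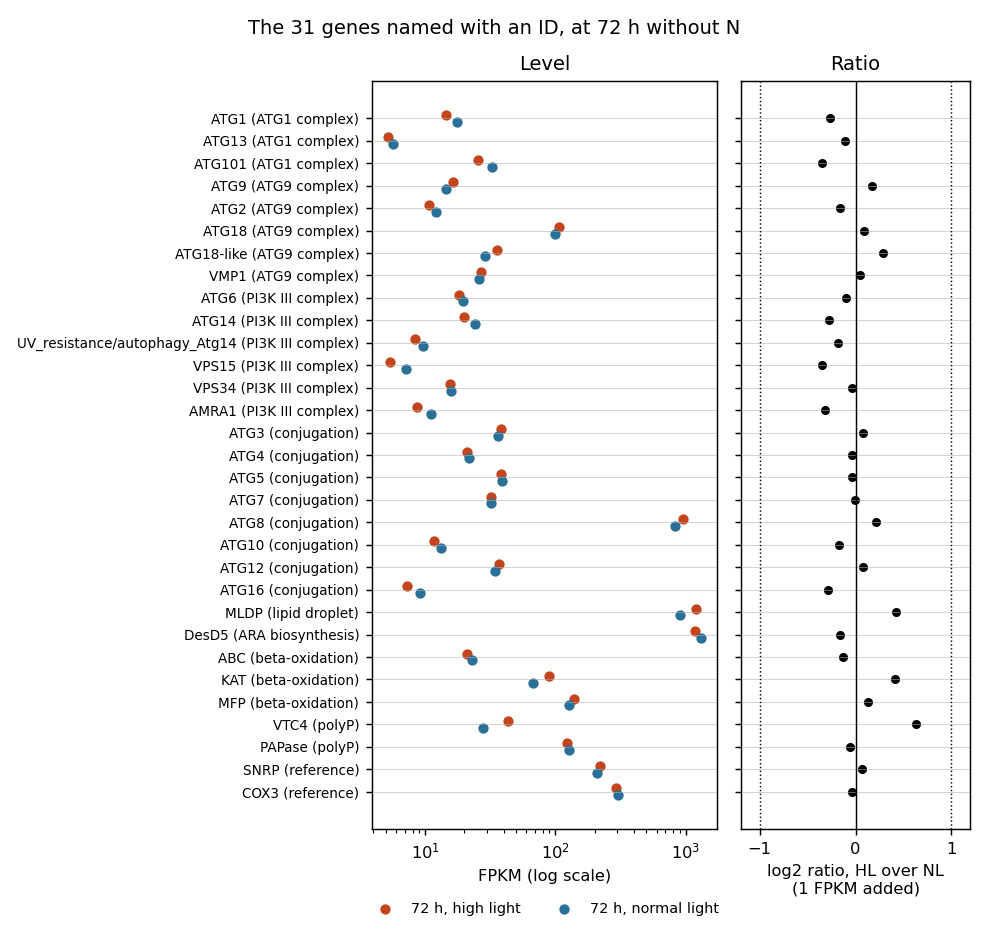
FPKM of the 31 named genes at 72 h without N under high light (orange) and normal light (blue) on a log scale (left), and their log2 ratio with 1 FPKM added (right), where dotted lines mark a 2-fold difference. All 31 ratios lie between -0.35 and 0.63, inside the dotted lines.

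Among the genes of storage and lipid turnover, MLDP, the major protein of lipid droplets, had 1212 FPKM (95% interval 1208 to 1215) under HL and 901 (899 to 904) under NL, a ratio of 1.34. It was at 1500.4 FPKM at 12 h and 261 at 0 h, so that all 3 N-deprived samples lay above the replete culture, with NL at 72 h as the lowest of them. DesD5, the Δ5 desaturase of ARA synthesis, went the other way, with 1178 FPKM (1175 to 1181) under HL and 1316 (1314 to 1319) under NL, a ratio of 0.895. It had 570 FPKM at 12 h and 179 at 0 h.

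In peroxisomal β-oxidation, KAT, the thiolase that releases acetyl-CoA, had 90.1 FPKM (89.2 to 91.0) under HL and 67.6 (67.0 to 68.3) under NL, a ratio of 1.33. It had 91.3 FPKM at 12 h and 63.5 at 0 h, so that the levels under HL lay close together, as did those under NL. Time differs within each of these pairs, and N within that under NL, so the part of light in this closeness was not tested. Only between the 72 h samples is light the one labelled difference. VTC4, MFP and PAPase, given below, did not have close levels under NL, nor did MLDP and DesD5, while ABC, also given below, did. MFP, the multifunctional protein of the middle steps, had 138 FPKM under HL and 126.5 under NL, and ABC, the putative peroxisomal transporter, had 20.85 under HL and 22.9 under NL. The gene farthest from equality among the 31 was VTC4, the putative polymerase of vacuolar polyphosphate. It had 43.6 FPKM (43.1 to 44.1) under HL and 27.9 (27.6 to 28.2) under NL, a ratio of 1.56 (counting interval 1.54 to 1.59), with 44.8 FPKM at 12 h and 60.45 at 0 h. PAPase, the putative acid phosphatase, had 123 FPKM under HL and 128 under NL. The 2 reference genes of the study's qRT-PCR had ratios of 1.05 (SNRP, 219 FPKM under HL and 210 under NL) and 0.975 (COX3, 293 under HL and 301 under NL). The log2 ratio of SNRP was 0.06 in FPKM and -0.01 in TPM.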

How the data were processed

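RNA of 32 samples was sequenced by the authors. Tools in the submitters' processing notes are RSEM 1.2.9, Bowtie 1.0.0, cutadapt 1.1, CASAVA 1.8 and DESeq (no version). The build of genome and annotation was not found in these notes. From RSEM the authors deposited FPKM, TPM and expected counts, pooled to 1 value per condition, with 95% intervals of FPKM and, for transcripts, the percent of the gene's TPM. Effective length equals length in these tables. The authors also deposited mean normalised counts per condition, a signal scaled by DESeq size factors, used here for 72 h. The columns of fold changes, coefficients and p-values from the authors' own comparisons were not used.

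Log2 ratios of FPKM were taken with a pseudocount of 1 FPKM over genes with at least 1 FPKM under either light. With 1 pooled value per condition no test was run, and p-values cannot be given. Counting intervals of ratios are exact binomial (Clopper-Pearson) at 95%, and cover counting error only. The named genes are the 31 the study gives with an ID and the 2 IDs at each end among genes with at least 10 FPKM. Members and lists were chosen with earlier results of these data known. The alternatives were TPM, CPM from expected counts, median-of-ratios scaling, other pseudocounts, minimums and folds, the most abundant transcript, and the authors' means. Poisson counts were also simulated from the pooled 72 h NL profile, with known changes put into genes of at least 10 FPKM. They hold no spread between cultures and no shared reads, so they check the arithmetic only. On these counts, genes changed 4-fold up had a median log2 ratio of 1.94 (50 of 50 called) and genes changed 4-fold down -1.87. Of 50 genes put exactly at 2-fold up 1 was called, and of 50 put at 2-fold down 7 were, with medians of 0.96 and -0.95. Without a pseudocount these medians were 0.99 and -1.02. Tables were handled with pandas 2.3.3 and numpy 2.4.6 in Python 3.11.15, intervals came from scipy 1.17.1, and plots from matplotlib 3.10.9.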

Additional observations from a re-analysis of the deposited data

How the results depend on the processing

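No paired analysis was possible because the values used here are pooled over replicates, and for the same reason no replicate was left out. The counts of 395 higher and 167 lower genes became 1004 and 711 at 1.5-fold, and 86 and 33 at 4-fold. With a minimum of 10 FPKM 262 were higher and 112 lower. Lower genes numbered 274 with a pseudocount of 0.1 FPKM, 309 with none, and 283 with the authors' mean normalised counts, where 1 normalised count was added; other counts stayed within 1.5 times. The median log2 ratio of all genes was -0.0943 in TPM, 0 without a minimum, 0.0189 at 10 FPKM, -0.0046 with the authors' means and -0.0043 with these and a matched pseudocount. Genes higher at 12 h had a median of -0.14 in TPM, -0.0537 without a minimum, 0.0483 at 10 FPKM and -0.0671 with the authors' means and a matched pseudocount, and genes lower at 12 h, at 0.0145 in the report, had -0.0851 in TPM, -0.0148 in CPM, -0.0288 and -0.0324 with pseudocounts of 0.1 and 0, -0.0108 at 10 FPKM, and -0.0022 and -0.0017 with the authors' means without and with a matched pseudocount. The share of genes higher at 72 h that were higher at 12 h was 51.8% in TPM, 37.8% with median-of-ratios scaling and 37.97% with the 12 h shift taken off, where 19.8%, 11.7% and 11.5% of all genes were higher at 12 h. The share of genes lower at 72 h that were lower at 12 h was 36.2% in TPM, 37.2% and 34.3% with pseudocounts of 0.1 and 0, and 34.98% with the authors' means, where at most 6.35% of all genes were lower at 12 h. The 12 h shares, the matched pseudocount and the 12 h ratio less its median were added after seeing the data. Of the 35 named genes, 4 changed sign in at least 1 setting (ATG5, ATG7, VMP1 and SNRP), and none of these was called. The called ones among the 35 are the 2 IDs at each end, chosen for their size, and they kept their sign. The spread between the 2 cultures was not measured here, so no value can be set against it.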
